A study of Arabidopsis thaliana with 27 samples.

Results

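UDP-glycosyltransferases (UGTs) are enzymes that move a sugar from a UDP-sugar donor to a small acceptor molecule, and their genes are named UGT with a number for the group they belong to. The members described here are the genes whose symbol begins with UGT and a digit and that had a probe set annotated to them alone. This gave 47 genes of the 13348 with a probe set of their own, in 11 number groups, and each was read by 1 probe set. UGT71 held 9 of them, UGT76 8, UGT73 7, UGT84 and UGT85 5 each, UGT72 4, UGT74 and UGT78 3 each, and UGT80, UGT87 and UGT88 1 each. Probe sets shared by several genes were left out, among them the pair UGT73B2 and UGT73B3. UGT genes listed under another name, such as GT72B1 (UGT72B1), SGT (UGT80A2) and UF3GT, fell outside the rule. The annotation did not list 8729 of the 22743 probe sets tested, so any UGT genes read by those are not covered. Below, the family means these 47 genes alone.

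In plants, glycosylation makes hormones, phenolic compounds and foreign chemicals more soluble, often inactivates them, and marks them for transport or storage in the vacuole. Acceptors of known members include cytokinins, auxins, abscisic acid, salicylic acid, flavonoids, sterols and hydroxycinnamic acids. Members of UGT72 glucosylate monolignols, the alcohols that are oxidised into lignin in the walls of tracheary elements, the dead conducting cells of xylem. The sugar can be removed again by beta-glucosidases.

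Signals were measured in suspension-cultured Arabidopsis thaliana cells of ecotype Col-0 as they formed tracheary elements. The culture is described as habituated, and its cells were 7 days old when they were placed in new medium with 3% sucrose and hormones: the auxin NAA (6 µg/ml), the cytokinin BAP (1 µg/ml) and epibrassinolide (4 µM), a brassinosteroid. Each of 9 times, 0, 12, 24, 36, 48, 60, 72, 84 and 96 h, was sampled in 3 independent time-courses lettered A, B and C, with 1 single-colour array per sample and thus n = 3 per time. According to the labels, cells divided at 0 h, stopped dividing and began to expand at 12 h, laid down secondary wall from 60 h and had complete walls at 96 h. Change of medium and hormones came together at 0 h, so that differences from 0 h cover both, and cultures without hormones were not analysed here. RNA came from whole cultures, in which a larger share of cells with a transcript and more transcript per cell cannot be told apart.

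Values are log2 signals as the authors deposited them, with a floor at 0, array medians from 0.86 to 1.00 and a highest value of 12.3. The base of the logarithm was taken as 2, and differences that start or end near the floor are understated. Markers matched the labels only in part. Of 4 measured genes of division 3 fell at 12 h, but AUR1 averaged 4.95 log2 units at 48 h and 5.59 at 72 h against 5.20 at 0 h, and AUR2 4.54 and 5.22 against 4.73. Of 4 measured tracheary element genes IRX15, IRX10 and PRX72 rose at 60 h, and PRX72 was back at 0.45 at 72 h against 0.02 at 0 h. The fourth, IRX15-L, was down at 12, 24, 36 and 48 h (-3.31 ± 0.33 at 12 h, SE) and stood at 3.77 at 60 h against 4.47 at 0 h. The other 23 of 27 listed tracheary element markers were not measured by name. RNA quality was read from the GAPDH control as its 3′ signal less its 5′ signal, a value that is larger in degraded RNA. Time-course B had 2.99 to 4.38 log2 units at 0, 60, 72, 84 and 96 h, and the other 22 arrays had 1.89 or less.

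Most of the 47 members were dim throughout. In 32 of the 47 genes (68.1%) no time mean reached 2 log2 units, as in 58.3% of all 22743 probe sets tested, and no array of these 32 genes exceeded 2.05. A change over the 9 times passed the F test of limma, a linear model with moderated variances, in 14 members (29.8%), where 23.1% of all probe sets passed at the same adjusted p threshold of 0.05. Of these 14 members 11 had their highest mean at 12 h (78.6%), whereas 1645 of the 5254 probe sets that passed did (31.3%). UGT85A2 was highest at 0 h, UGT71C3 at 24 h and UGT88A1 at 36 h, and none of the 14 was highest at 48 h or later.

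**Figure D1:**
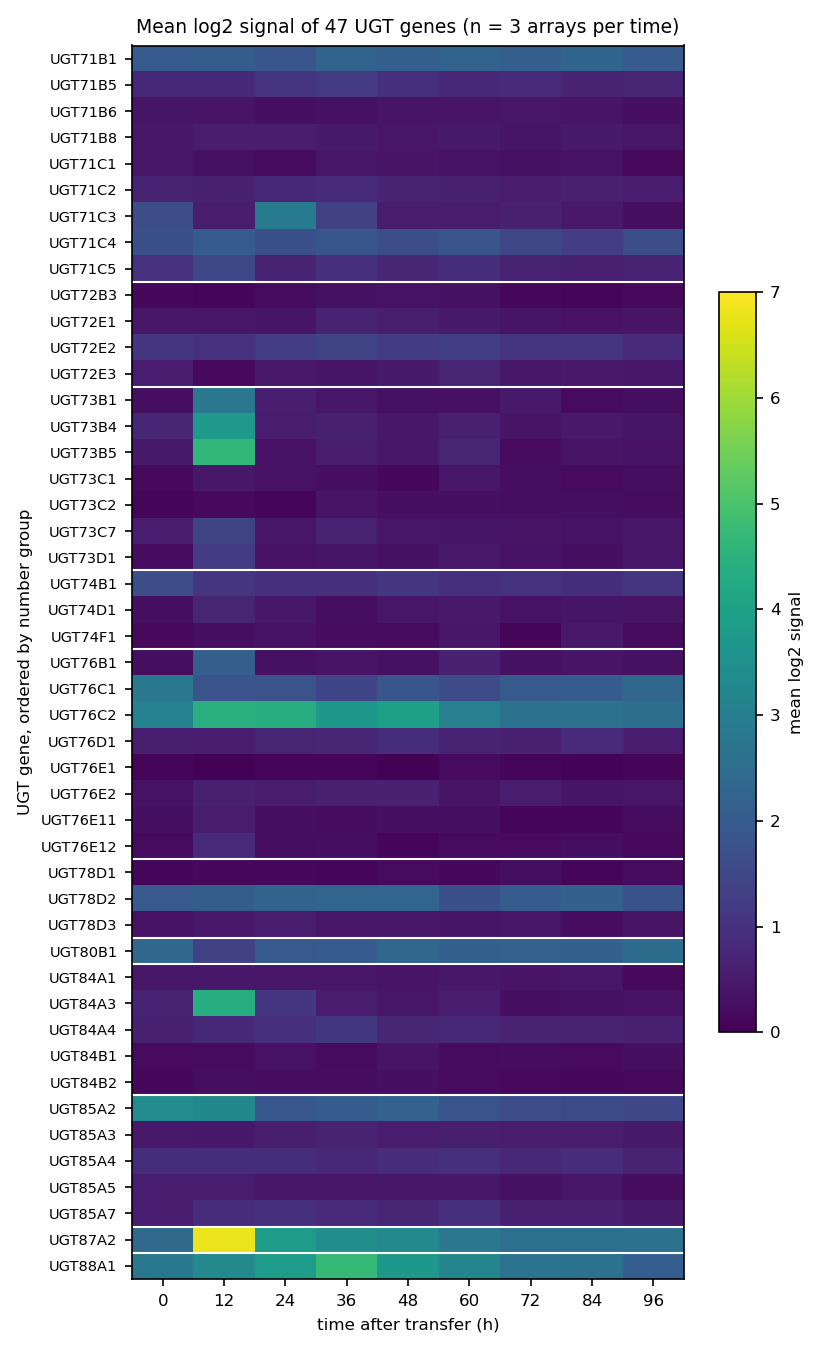
Mean log2 signal (colour, n = 3 arrays) of the 47 UGT genes (rows, by number group with white lines between groups) at the 9 times (columns, h). UGT87A2 reaches 6.80 at 12 h, UGT73B1, UGT73B4, UGT73B5 and UGT84A3 are bright at 12 h alone, and the UGT72 and UGT74 rows stay dark.

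The 12 h samples were compared with 0 h to see how the family stood when division ended. At 12 h 11 of the 47 genes rose (23.4%) and 4 fell (8.51%). Over all probe sets tested the percentages were 8.48% up and 8.67% down (17.1% in either direction, against 31.9% of members), so the share of members that rose was well above the background and the share that fell was close to it. The median difference was 0.066 log2 units over the members and 0.0029 over all probe sets. By group, 5 of 7 UGT73 genes, 3 of 8 UGT76 genes, 1 of 9 UGT71 genes, 1 of 5 UGT84 genes and the single UGT87 gene rose. Without the 9 arrays of time-course B, 9 rose and 1 fell. The percentages over all probe sets are those of the main fit and are not given for that one.

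UGT87A2 (AT2G30140), which acts in flowering time in Arabidopsis, had 6.62, 6.54 and 7.25 log2 units at 12 h in time-courses A, B and C, against 2.25, 1.93 and 3.08 at 0 h. Every 12 h array lay far above every 0 h array, and the gene was 20.9-fold higher (4.38 ± 0.29 log2 units, SE, adjusted p = 5.59e-10). Its level came down in steps, to 3.84 ± 0.45 at 24 h, 3.46 ± 0.13 at 36 h and 3.30 ± 0.02 at 48 h (SD, n = 3), and lay between 2.56 and 2.77 from 60 h to 96 h. At 24 h and 36 h it was still above 0 h, by 1.42 ± 0.29 and 1.04 ± 0.29 (SE, adjusted p = 0.00193 and 0.0196). The 36 h call was lost without any of 4 arrays, those of A and B at 0 h and of B and C at 36 h, with adjusted p up to 0.127. At 48 h it stood 0.87 above 0 h (adjusted p = 0.0565), a difference that passed with the time-course as a replicate block (adjusted p = 0.0172).

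The UGT73B genes showed a sharper pulse. UGT73B3 and UGT73B5 of this group are known to take part in the response to Pseudomonas infection. UGT73B5 (AT2G15480) had 5.01, 4.51 and 4.39 log2 units at 12 h in A, B and C, against 0.54, 0.34 and 0.62 at 0 h, a difference of 4.14 ± 0.15 (SE, adjusted p = 1.36e-14). UGT73B4 (AT2G15490), its neighbour on the chromosome, had 4.71, 3.28 and 3.36 at 12 h, against 0.75, 0.90 and 0.64 at 0 h (3.02 ± 0.25, adjusted p = 1.52e-08). UGT73B1 had 3.47, 2.36 and 2.51 at 12 h, against 0.12, 0.36 and 0.41 at 0 h (2.48 ± 0.24, adjusted p = 2.04e-07). In all 3 genes the 12 h array of A was the highest, and no 12 h array overlapped with 0 h.

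After 12 h the pulse was over. On the 21 arrays from 24 h to 96 h UGT73B5 stayed between 0.13 and 0.80, UGT73B4 between 0.23 and 0.81, and UGT73B1 between 0.06 and 1.10 log2 units. UGT73B1 was at 1.10 on the 24 h array of A, its highest value of these. UGT73C7, an enzyme linked to hydroxycinnamic acids, and UGT73D1 rose in the same samples at lower signals. UGT73C7 had 1.27, 1.89 and 1.11 at 12 h, against 0.38, 0.68 and 0.54 at 0 h (0.89 ± 0.15, adjusted p = 0.000133). UGT73D1 had 1.67, 1.28 and 0.81, against 0.35, 0.19 and 0.19 (1.01 ± 0.15, adjusted p = 3.97e-05). The remaining UGT73 genes, UGT73C1 and UGT73C2, never exceeded 0.74 on any array, and neither changed in any comparison.

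UGT84A3 makes glucose esters of hydroxycinnamic acids, which feed phenylpropanoid metabolism. It had 2.55, 5.10 and 5.45 log2 units at 12 h in A, B and C, against 0.00, 0.56 and 1.42 at 0 h, a difference of 3.71 ± 0.48 (SE, adjusted p = 8.42e-06). Here the 12 h array of A was the lowest, the reverse of the UGT73B genes, and that time-course also began lowest. Within the time-courses the rise was 2.55 or more, and it passed without any single array (adjusted p = 0.00013 at most). At 24 h the gene stood at 1.78, 0.66 and 0.88, and no array from 36 h on exceeded 0.66.

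UGT76B1 glucosylates isoleucic acid and salicylic acid and restrains defence in Arabidopsis. It had 2.42, 1.96 and 1.94 log2 units at 12 h, against 0.25, 0.31 and 0.24 at 0 h (1.84 ± 0.18, SE, adjusted p = 1.64e-07). From 24 h on it lay between 0.11 and 1.19, with 1.19 on the 60 h array of C as the sole value above 0.56. UGT76E12 rose by 0.65 ± 0.10 (adjusted p = 9.43e-05), with 0.85, 0.83 and 0.89 at 12 h, against 0.16, 0.32 and 0.14 at 0 h, all close to the floor. UGT71C5, which can glucosylate abscisic acid, had 1.08, 1.66 and 1.82 at 12 h, against 0.76, 0.91 and 1.36 at 0 h, so the groups overlapped. Its rise of 0.51 ± 0.18 (adjusted p = 0.0495) was lost without A or B at 0 h or B or C at 12 h (adjusted p up to 0.273), and also with median centring, quantile normalization, trended robust variances, the GAPDH measure as a covariate or without time-course B (adjusted p up to 0.471).

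**Figure D2:**
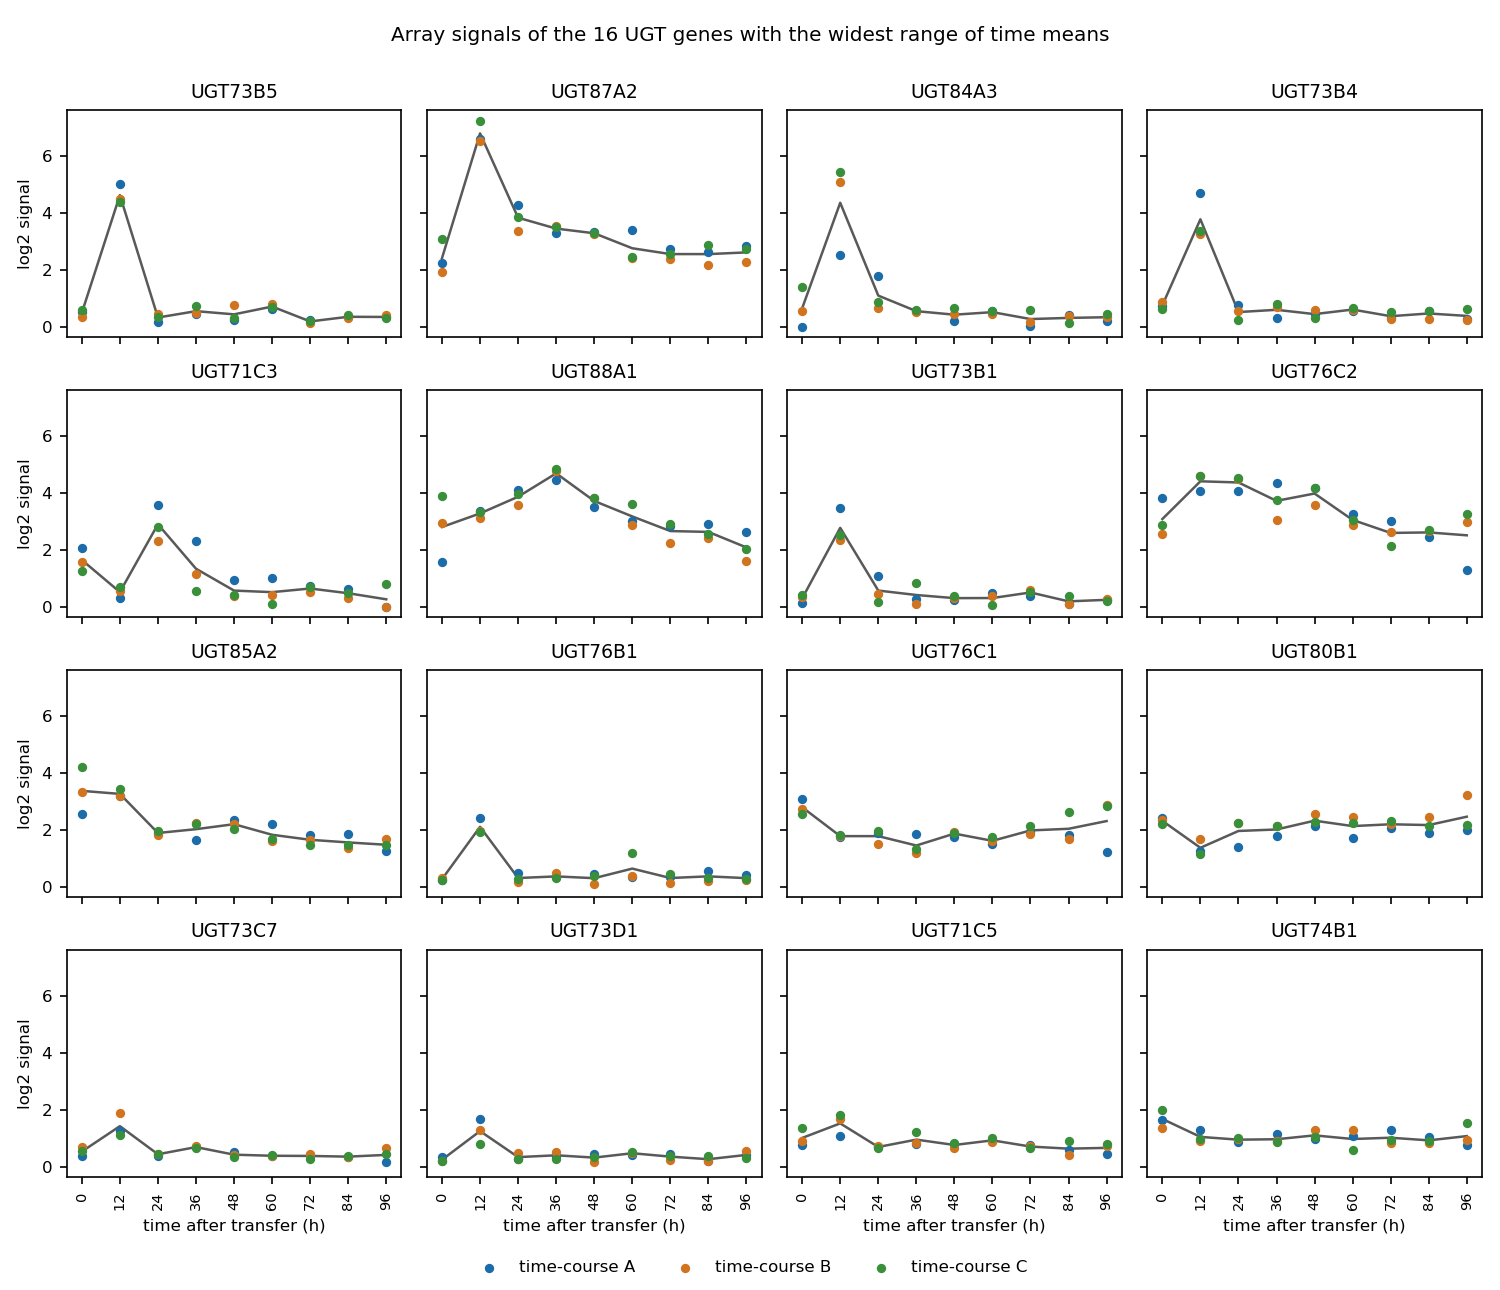
Log2 signal (vertical axis) of the 16 UGT genes whose time means span the widest range, at the 9 times (horizontal axis, h). Points are arrays coloured by time-course and lines join the means of 3 arrays. UGT73B5 and UGT84A3 peak at 12 h, with means of 4.63 and 4.37, while UGT85A2 falls after 12 h and UGT88A1 peaks at 36 h with a mean of 4.69.

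The 4 genes that fell at 12 h did so by smaller steps. Among them only UGT71C3 passed the F test over all times. UGT76C1, UGT74B1 and UGT80B1 did not (adjusted p = 0.0627, 0.113 and 0.118). UGT71C3, which glucosylates methyl salicylate, had 0.30, 0.55 and 0.72 log2 units at 12 h, against 2.09, 1.59 and 1.27 at 0 h (-1.13 ± 0.36, SE, adjusted p = 0.0339). UGT76C1 had 1.74, 1.77 and 1.83, against 3.08, 2.74 and 2.56 (-1.02 ± 0.32, adjusted p = 0.0284). UGT80B1, which glucosylates sterols, had 1.25, 1.69 and 1.17, against 2.41, 2.35 and 2.19 (-0.95 ± 0.27, adjusted p = 0.0187). In each of them the 12 h arrays lay below all 0 h arrays. UGT74B1, an enzyme of glucosinolate synthesis, had a mean of 1.05 at 12 h against 1.68 at 0 h, also without overlap (-0.63 ± 0.20, adjusted p = 0.0317). These calls rested on all 6 arrays: the count of 4 was 0 without A at 0 h or C at 12 h, 2 without B at 0 h, 1 without A or B at 12 h and 3 without C at 0 h. Without B at 0 h UGT74B1 alone of the 4 kept its call, so the 2 include a member not called down in the main fit. The GAPDH measure of RNA quality also moved between these times, averaging 0.72 log2 units at 12 h against 1.92 at 0 h. With it as a covariate 10 members rose and 4 fell, a fit for which the share of all probe sets is not given.

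Between 12 h and 24 h the family turned the other way. At 24 h 11 members had fallen relative to 12 h (23.4%, against 7.29% of all probe sets) and 1 had risen (2.13%, against 5.31%). With the replicate block UGT80B1 rose too, by 0.59 (adjusted p = 0.0462, against 0.203 without the block), which made 2 risers. The comparison shares the 12 h arrays with the one above. The largest falls were those of UGT73B5 (-4.30 ± 0.15), UGT84A3 (-3.26 ± 0.48), UGT73B4 (-3.26 ± 0.25) and UGT87A2 (-2.96 ± 0.29), with adjusted p of 5.35e-05 or less. The gene that rose was UGT71C3, from the methyl salicylate branch, which had 3.57, 2.33 and 2.81 log2 units at 24 h, against 0.30, 0.55 and 0.72 at 12 h (2.38 ± 0.36, SE, adjusted p = 7.01e-05). Its level at 24 h was also above that at 0 h, by 1.25 ± 0.36 (adjusted p = 0.0242), a call lost without B or C at 0 h or A or C at 24 h (adjusted p up to 0.158). UGT71C3 thus went below 0 h at 12 h and above it at 24 h in all 3 time-courses.

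Relative to 0 h, 3 members were up at 24 h and 3 down (6.38% each, against 5.44% and 6.77% of all probe sets). Those up were UGT87A2, UGT76C2 and UGT71C3, and those down were UGT85A2, UGT76C1 and UGT74B1. The count of 6 was 3 without B or C at 0 h or C at 24 h, 2 without A at 24 h and 1 without time-course B. Without C at 0 h only UGT87A2 and UGT85A2 of the 6 kept their calls, so that count of 3 includes a member not called in the main fit. UGT88A1 stood 1.06 above 0 h (adjusted p = 0.0748), which passed with the replicate block (adjusted p = 0.0453). At 36 h 2 members were up, UGT88A1 and UGT87A2 (4.26%, against 5.97%), and 3 down, UGT85A2, UGT76C1 and UGT74B1 (6.38%, against 7.55%). That count of 5 was 3 without B or C at 36 h and 0 without time-course B. At both times the shares were close to the background.

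From 48 h on no member was called up against 0 h in the main fit, which left out the replicate block. At 48 h 0 rose and 1 fell (2.13%, against 4.98% and 6.71% of all probe sets up and down). In limma 8 members had an unadjusted p under 0.05, a threshold at which the share of all probe sets was not counted. At 60 h, the first time of wall deposition, 0 rose and 4 fell (8.51%, against 5.36% and 7.86%). At 72 h the counts were 0 and 1 (2.13%, against 2.35% and 4.22%, or 6.57% either way), at 84 h 0 and 2 (4.26%, against 2.17% and 4.14%, or 6.31% either way), and at 96 h 0 and 2 (4.26%, against 1.49% and 3.01%). With the replicate block UGT87A2 was up and UGT71C3, UGT76C1 and UGT85A2 down at 48 h, which made 4 calls, and at 72 h UGT71C3, UGT74B1 and UGT85A2 were down. The share of all probe sets called with the block is not given. At 84 h the block added UGT71C3 (-1.17, adjusted p = 0.0205, against 0.0581 without the block). Single arrays moved these small counts: without C at 0 h the 48 h count was 3, without B at 0 h it was 2, as was that of 72 h, and without A at 72 h the 72 h count was 2. The 60 h count was 2 without A at 0 h or C at 60 h, the 84 h count 1 without A or C at 0 h or B or C at 84 h, and the 96 h count 1 without B at 0 h or A or B at 96 h.

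**Figure D3:**
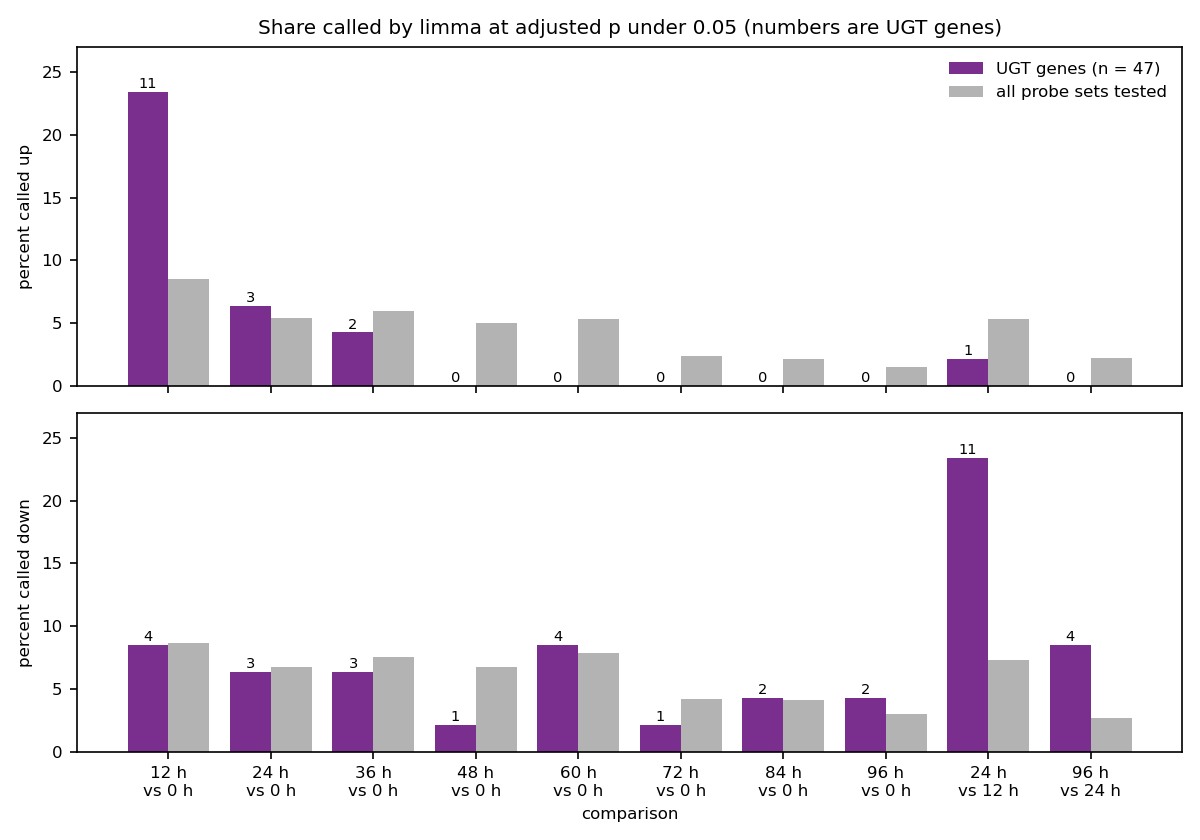
Percentage of the 47 UGT genes (purple, left of each pair, with their number above) and of all probe sets tested (grey) that limma called up (upper panel) or down (lower panel) in the comparisons named on the axis. The purple bars stand well above the grey at 12 h against 0 h, where 11 members rose, and at 24 h against 12 h, where 11 fell.

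UGT85A2 was the member that stayed low. It had 3.17, 3.19 and 3.43 log2 units at 12 h, within its 0 h range of 2.56, 3.34 and 4.22, and 1.90, 1.83 and 1.95 at 24 h. From 24 h to 96 h all 21 arrays lay between 1.27 and 2.36, below each 0 h array. It was lower than at 0 h in all 7 comparisons from 24 h on, by 1.17 to 1.89, with -1.48 ± 0.27 at 24 h (SE, adjusted p = 0.000706) and -1.89 ± 0.27 at 96 h (adjusted p = 0.00016). None of the 7 calls was lost without a single array (adjusted p = 0.0467 at most). Without time-course B only those at 72 h and 96 h passed, and the other 5 had adjusted p of 0.0537 to 0.138.

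UGT74B1 had means of 0.92 to 1.10 log2 units at all 8 later times, against 1.68 ± 0.32 at 0 h (SD, n = 3). The gene did not pass the F test (adjusted p = 0.113). It was called down at 24, 36, 60 and 84 h as well as at 12 h, and each of these calls was lost without C at 0 h, the highest array of the gene at 2.01, with adjusted p of 0.116 to 0.181. UGT71C3 was down at 60 h (-1.13 ± 0.36, adjusted p = 0.0415) and 96 h (-1.38 ± 0.36, adjusted p = 0.0283), and stood at 0.01, 0.00 and 0.79 on the 96 h arrays of A, B and C. Both of these calls were lost without A or B at 0 h or without B at the later time, and also without C at 60 h or A at 96 h (adjusted p up to 0.166).

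UGT88A1 followed a slower course. It had 4.45, 4.78 and 4.85 log2 units at 36 h in A, B and C, against 1.58, 2.93 and 3.91 at 0 h, and was 1.89 ± 0.38 higher (SE, adjusted p = 0.00156). The 0 h arrays lay far apart, with the increase largest in A and smallest in C. Its means then fell at each later time, to 3.72 at 48 h, 3.18 at 60 h, 2.67 at 72 h, 2.64 at 84 h and 2.09 at 96 h. A comparison of 96 h with 24 h, added after these values were seen, called 4 members down (8.51%, against 2.67% of all probe sets) and 0 up (against 2.25%, or 4.92% either way). These were UGT71C3 (-2.64 ± 0.36), UGT76C2 (-1.86 ± 0.41), UGT88A1 (-1.78 ± 0.38) and UGT87A2 (-1.22 ± 0.29). Without B at 96 h the calls of UGT88A1 and UGT87A2 were lost (count of 2), that of UGT87A2 also without A or C at 24 h, and without time-course B the count was 1. The GAPDH measure of RNA quality averaged 0.91 log2 units at 24 h and 2.01 at 96 h. With it as a covariate all 4 calls passed. Between 72 h and 48 h, wall deposition against the last time before it, limma called 0 members at adjusted p under 0.05 (0.44% of all probe sets, 0.158% up and 0.281% down). Array weights gave 1 call. At an unadjusted p under 0.05 there were 3 members, again without a count over all probe sets. The GAPDH measure averaged 0.97 log2 units at 48 h and 1.86 at 72 h.

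Cytokinin is inactivated in Arabidopsis by N-glucosylation through UGT76C1 and UGT76C2, which lie next to each other in the genome. The medium held the cytokinin BAP, and an effect of BAP on these genes was not tested. UGT76C2 had 4.06, 4.59 and 4.59 log2 units at 12 h, against 3.83, 2.55 and 2.87 at 0 h (1.33 ± 0.41, SE, adjusted p = 0.0275), and 4.08, 4.51 and 4.52 at 24 h (1.29 ± 0.41 above 0 h, adjusted p = 0.0436). Time-course A began high and differed least between these times. The 12 h call was lost without B or C at 0 h or at 12 h (adjusted p up to 0.142), and the 24 h call without B or C at 0 h or any 24 h array (adjusted p up to 0.194). Both calls were also lost without time-course B, and the 24 h call with the GAPDH covariate (adjusted p up to 0.375). UGT76C1 moved in the opposite direction and was down at 12, 24, 36 and 60 h, with the largest fall at 36 h, where it had 1.84, 1.19 and 1.32, against 3.08, 2.74 and 2.56 at 0 h (-1.34 ± 0.32, adjusted p = 0.00553). The call at 12 h was lost without any array but C at 0 h, that at 24 h without any of the 6, and that at 60 h without A at 0 h (adjusted p = 0.0651). Each of the UGT76C1 calls was also lost without time-course B, that at 36 h with adjusted p = 0.123. That at 24 h was lost with median centring and with quantile normalization too. UGT76C1 did not pass the F test (adjusted p = 0.0627). At 96 h UGT76C1 had 1.21, 2.87 and 2.85 and UGT76C2 had 1.31, 2.97 and 3.27, with A the low array for both.

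Besides UGT76B1, UGT71C3 and UGT71C5, described above, 5 members that act on other hormones or on salicylic acid stayed near the floor. UGT84B1 and UGT74D1, which glucosylate auxins, never exceeded 0.52 and 0.89 log2 units on any of the 27 arrays. The medium held the auxin NAA, and an effect of NAA on them was not tested. UGT71B6 and UGT71B8, which belong to the group that glucosylates abscisic acid, reached 0.70 and 0.79 at most. UGT74F1, a salicylic acid glucosyltransferase, reached 0.63. None of these 5 genes passed the F test (adjusted p of 0.216 to 0.993) or changed in any comparison. UGT73C1, which O-glucosylates cytokinins in vitro, was equally dim.

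None of the 4 measured UGT72 genes was called in any comparison, those at the times of wall deposition included. UGT72E1, UGT72E2 and UGT72E3, which glucosylate monolignols and their aldehydes, and UGT72B3 had time means of 1.43 log2 units or less throughout. UGT72E2 had 1.30 ± 0.65 at 60 h, 1.04 ± 0.31 at 72 h and 0.82 ± 0.21 at 96 h, against 1.10 ± 0.20 at 0 h (SD, n = 3). No UGT72 gene passed the F test (adjusted p of 0.24 or more) or a comparison with 0 h (adjusted p of 0.0954 or more). UGT72B1, listed under another name, is not part of these counts. HCT, an enzyme earlier in monolignol synthesis and 1 of 2 measured genes of 22 on that list, rose at 12 h, to 6.58 against 5.02 at 0 h (1.56 ± 0.41, SE, adjusted p = 0.00948), and stood at 4.78 at 60 h (adjusted p = 0.774 against 0 h). Between 24 h and 12 h HCT fell, to 3.91 against 6.58 (-2.66 ± 0.41, adjusted p = 8.67e-05).

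Flavonoid glycosyltransferases of UGT78 showed no call. UGT78D2, a flavonoid 3-O-glucosyltransferase, had a median of 2.14 over the 27 arrays and a range of 0.89 to 2.58. Its arrays lay far apart at 60 h, at 2.58, 0.89 and 1.61 in A, B and C (SD 0.85). UGT78D1, the flavonol 3-O-rhamnosyltransferase, and UGT78D3, the arabinosyltransferase, never exceeded 0.36 and 0.68. The 3 genes had F test adjusted p of 0.523 or more. The 2 measured genes of 14 on the list of flavonoid synthesis, DFR and BAN, likewise lay at 0.24 and 0.33 at 12 h, against 0.25 and 0.32 at 0 h.

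Many UGT genes sit in tandem arrays, and neighbours did not always share a profile. Among the members 18 pairs lay with at most 2 other protein-coding genes between them in RefSeq gene order (TAIR10.1). Over the 9 time means UGT73B5 and UGT73B4 had r = 0.996 and UGT73D1 and UGT73C7 r = 0.929, and all 4 genes had their highest mean at 12 h. At every other time their means were 0.76 log2 units or less, so that both r values rest largely on the 12 h point. Cross-hybridisation between such close relatives was not tested. In the run of UGT84A1, UGT84A3 and UGT84A4, UGT84A3 was called at 12 h and its neighbours in no comparison, with r = 0.32 for UGT84A1 and r = 0.07 for UGT84A4 against UGT84A3. UGT76C2 and UGT76C1 had r = -0.45. In the run of UGT71C5, UGT71C4 and UGT71C3, UGT71C4 had no call, with r = 0.74 to UGT71C5 and r = 0.13 to UGT71C3. UGT85A2 had r = 0.77 with UGT85A5 on one side and r = 0.04 with UGT85A7 on the other, and neither neighbour was called. UGT76E12 and UGT76E11 had r = 0.77. UGT85A5 and UGT76E11 had highest means of 0.53 and 0.54, near the floor, and neither passed the F test (adjusted p = 0.631 and 0.489). Over all 1081 pairs of members the median r was 0.12, with quartiles of -0.16 and 0.46. These correlations describe 9 means of the same 27 arrays.

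**Figure D4:**
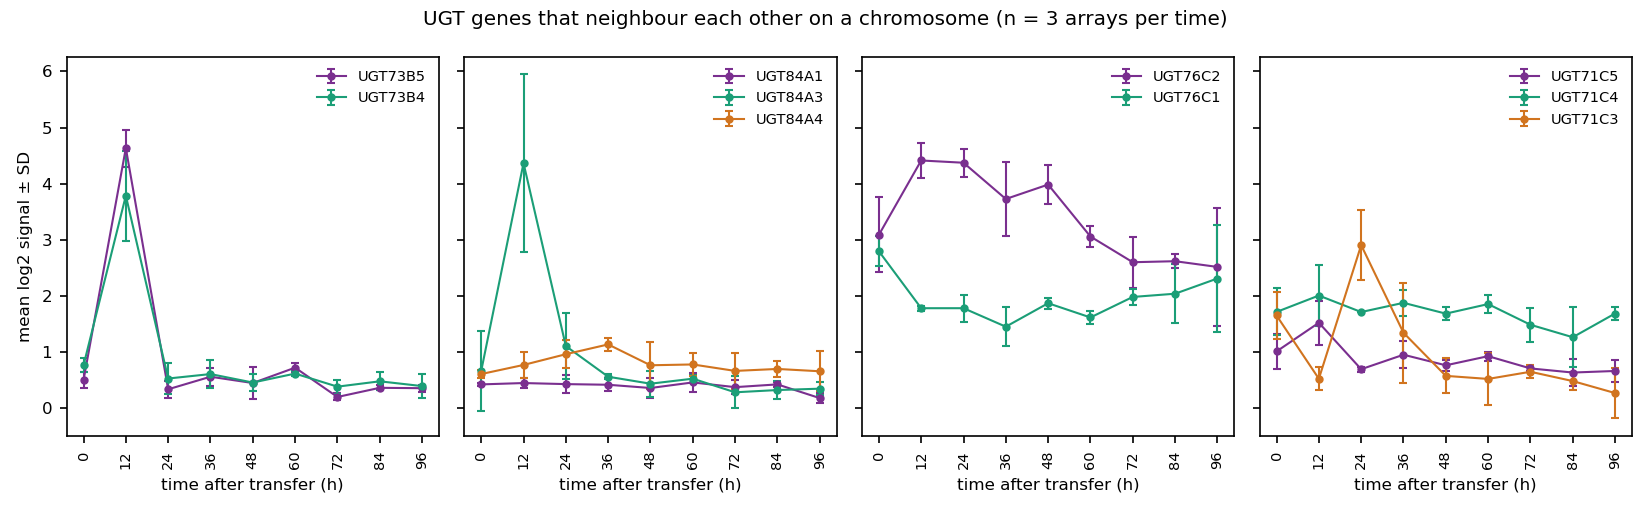
Mean log2 signal with SD (vertical axis, n = 3 arrays) at the 9 times (horizontal axis, h) for 4 sets of UGT genes that neighbour each other on a chromosome. UGT73B5 and UGT73B4 peak together at 12 h, UGT84A3 peaks at 12 h with a mean of 4.37 while the lines of UGT84A1 and UGT84A4 show no such peak, and UGT76C2 and UGT76C1 move apart at 12 h.

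Genes with related functions were read beside the family. Of 20 beta-glucosidase genes 2 rose at 12 h and 4 fell, where 8.48% and 8.67% of all probe sets did, with BGLU28 at 6.46 log2 units at 12 h against 0.37 at 0 h (6.09 ± 0.58, SE) and BGLU44 at 0.81 against 4.29 (-3.48 ± 0.23). At 24 h against 12 h 1 of the 20 rose and 2 fell, where 5.31% and 7.29% of all probe sets did. BGLU45, chosen here because it cleaves monolignol glucosides, was among the 4 that fell. It had 0.09 at 12 h against 0.51 at 0 h (adjusted p = 0.0249), both near the floor. At 60 h it had 0.20 and at 72 h 0.25, neither called against 0 h (adjusted p = 0.125 and 0.32). Of 13 glutathione transferases, which act in detoxification beside UGTs, 3 rose at 12 h and 1 fell, where 8.48% and 8.67% of all probe sets did. At 24 h against 12 h 0 of the 13 rose and 3 fell, where 5.31% and 7.29% of all probe sets did. Some genes of both lists thus rose at 12 h, but the 2 of 20 beta-glucosidases were close to the share of all probe sets. Both lists are short. No test was made of either list. USP, the sole measured gene of 13 on the list of UDP-glucose supply, did not pass at 12 h, at 2.45 against 2.26 at 0 h (adjusted p = 0.874). Of the 3 listed 12-oxophytodienoate reductases none was measured by name.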

How the data were processed

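The deposited log2 signals were made by the authors with RMA, a method that corrects background, normalizes arrays and summarises probes, per the submitters' processing notes. Its version was not stated, and the log base was taken from the range of values. Of 22810 probe sets, the 64 controls and another 3 lacking a value were not tested. Between 272 and 978 values per array were exactly 0. The annotation lists 14016 probe sets, and UGT genes each had 1, so that the rule of the highest mean made no choice. No sequences are shown.

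limma 3.58.1 in R 4.3.3 fitted 1 mean per time to all 27 arrays (lmFit, eBayes). P-values were adjusted by Benjamini-Hochberg over 22743 probe sets within a comparison, and calls are those under 0.05. SE are from this fit. Any member could be named. Array values are given for the 16 with the widest range of time means and for members with a known acceptor, and called members with the largest changes come first. Related genes come from lists of names. Members and lists were chosen with earlier results of these data known. The fit was tested on simulated data.

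The letters pair the samples, since the design text ties each to 1 time-course. The main fit left this pairing out, and the replicate block took it in. Arrays of the same letter deviated together: the correlation of their deviations had a median of 0.246 (108 pairs), against -0.125 for arrays that share neither letter nor time (216 pairs). Deviations were taken from the mean of each time, where those of A, B and C cancel out. The second value therefore follows largely from the first and is no separate evidence of pairing. The number of arrays limits the precision.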

Additional observations from a re-analysis of the deposited data

How the results depend on the processing

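Of the 52 calls of single members none changed direction under any alternative. Counts that moved by over 1.5 times were these. They are given without the share of all probe sets in the same fit and cannot be set against the percentages of the main fit. With dim probe sets not tested, 7 members rose at 12 h (4 of the risers were no longer tested). Quantile normalization gave 2 down at 12 h, 2 calls at 48 h, and 1 each at 84 h and 96 h. Without time-course B there were 1 down at 12 h, 1 call each at 24 h, 60 h and 96 h, 0 at 36 h, 48 h and 84 h, 1 at 96 h against 24 h, and 9 in the F test, from 18 arrays. At 48 h there were 4 calls with the replicate block, with array weights and with dim probe sets not tested, and 2 with median centring, with trended robust variances and with the GAPDH covariate. At 72 h there were 3 with the replicate block and 2 with array weights and with the covariate. Array weights gave 1 call at 96 h and 1 at 72 h against 48 h. Leaving out each array in turn gave 0 to 3 down at 12 h, 9 to 13 up at 12 h, 2 to 5 calls at 24 h, 3 to 6 at 36 h, 1 to 3 at 48 h, 2 to 4 at 60 h, 1 to 2 at 72 h, 1 to 2 at 84 h, 1 to 3 at 96 h, 12 at 24 h against 12 h, 2 to 5 at 96 h against 24 h and 13 to 15 in the F test. The cause of these shifts was not tested beyond the smaller number of arrays or probe sets. The replicate block ended 0 of the 52 calls, and leaving out time-course B ended 27. A mean over probe sets was not run, since each gene had 1. Array medians lay at 0.86 to 1.00, and 32 members had no time mean of 2 or more.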
